A study of Homo sapiens with 7 samples.

Results

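The phagocyte NADPH oxidase is the enzyme complex with which neutrophils and monocytes make superoxide against microbes. A flavocytochrome in the membrane, made of gp91phox (encoded by CYBB) and p22phox (CYBA), carries electrons from NADPH to oxygen. In resting cells the organizer subunit p47phox (NCF1) and the adaptor p40phox (NCF4) stay in the cytosol, and after stimulation they move to the flavocytochrome together with the GTPase Rac2 (RAC2). The genes are turned on as myeloid precursors mature, under factors that include the ETS protein PU.1, and inherited loss of subunits causes chronic granulomatous disease. The 5 genes CYBB, CYBA, NCF1, NCF4 and RAC2 were taken by symbol from the 20163 protein-coding genes of the GENCODE annotation on GRCh37 (hg19). Other subunits of the complex were not analysed here.

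Binding was mapped by ChIP-seq in Kasumi-1 cells, an established acute myeloid leukemia cell line with the t(8;21) translocation, which fuses the transcription factor AML1 (RUNX1) to ETO and gives the fusion protein AML1-ETO. One list of peaks was used for AML1, 1 for AML1-ETO, and 1 each for the co-repressor N-CoR, the co-activator and histone acetyltransferase p300, and H3K4me3, a histone modification found at active promoters. The lists hold 11692, 18087, 10004, 11020 and 19632 peaks, respectively, each a 100 bp window around a summit, with no read count, height or p-value. The AML1 antibody recognizes the C-terminus of AML1, which the fusion protein lacks, and the ETO antibody was used for AML1-ETO. The lists come from 1 cell line with no control line or treatment, and the authors pooled 2 biological replicates before calling peaks, so no spread between replicates and no test between libraries can be given. The depth behind a peak is not in the lists, and a gene without a peak had no summit at the authors' threshold, which is not the same as no binding. Per library, the study reports more reads for N-CoR than for any other antibody, and the part of depth in the counts was not tested.

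The H3K4me3 list was first checked against the cell type, and the other lists were not checked in this way. An H3K4me3 summit lay within 1000 bp of an annotated transcription start at 5 of 5 myeloblast genes (CD34, KIT, MPO, ELANE and CD33) and at 0 of 3 T cell genes (CD3D, CD3E and CD2). Across all protein-coding genes the share was 62.3%.

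A site was assigned to an oxidase gene when its summit lay in the gene body or within 5 kb of it. AML1-ETO had a site at 4 of the 5 genes, and 41.3% of all protein-coding genes had one. AML1 had sites at 4 of 5 genes (34.9% of all genes), N-CoR at 4 (26.7%), p300 at 3 (45.5%) and H3K4me3 at 3 (68.0%). With 50 kb to either side, 4 of the 5 genes had sites of each list, against 66.5% of all genes for AML1-ETO, 59.8% for AML1, 64.4% for p300, 48.7% for N-CoR and 80.9% for H3K4me3. Counts over 5 genes are a description of these genes and were not tested against the background. The genes held 11 AML1-ETO summits, 9 AML1, 9 N-CoR, 5 p300 and 4 H3K4me3 summits in 158 kb of summed windows. Per 10 kb of window this was 0.697 AML1-ETO sites, against 0.104 over the windows of all protein-coding genes. The same density was 0.570 against 0.0671 for AML1, 0.570 against 0.0564 for N-CoR, 0.317 against 0.0854 for p300 and 0.253 against 0.157 for H3K4me3. The density of all genes is summed summits over summed windows, so long genes weigh most in it. A short gene exceeds it with 1 site: CYBA, with 1 AML1-ETO summit, had 0.562 per 10 kb. The median oxidase gene had 2 AML1-ETO, 2 N-CoR, 1 AML1, 1 p300 and 1 H3K4me3 summits, and the median of all genes was 0 in each list except H3K4me3, where it was 1. Genes with an AML1-ETO site had a median length of 41334 bp, and all genes one of 27219 bp. The oxidase genes ranged from 7809 bp (CYBA) to 34325 bp (RAC2), so 3 of the 5 were shorter than the median of all genes and all 5 were shorter than the median of genes with an AML1-ETO site. The part of gene length in the counts and densities was not tested.

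**Figure D1:**
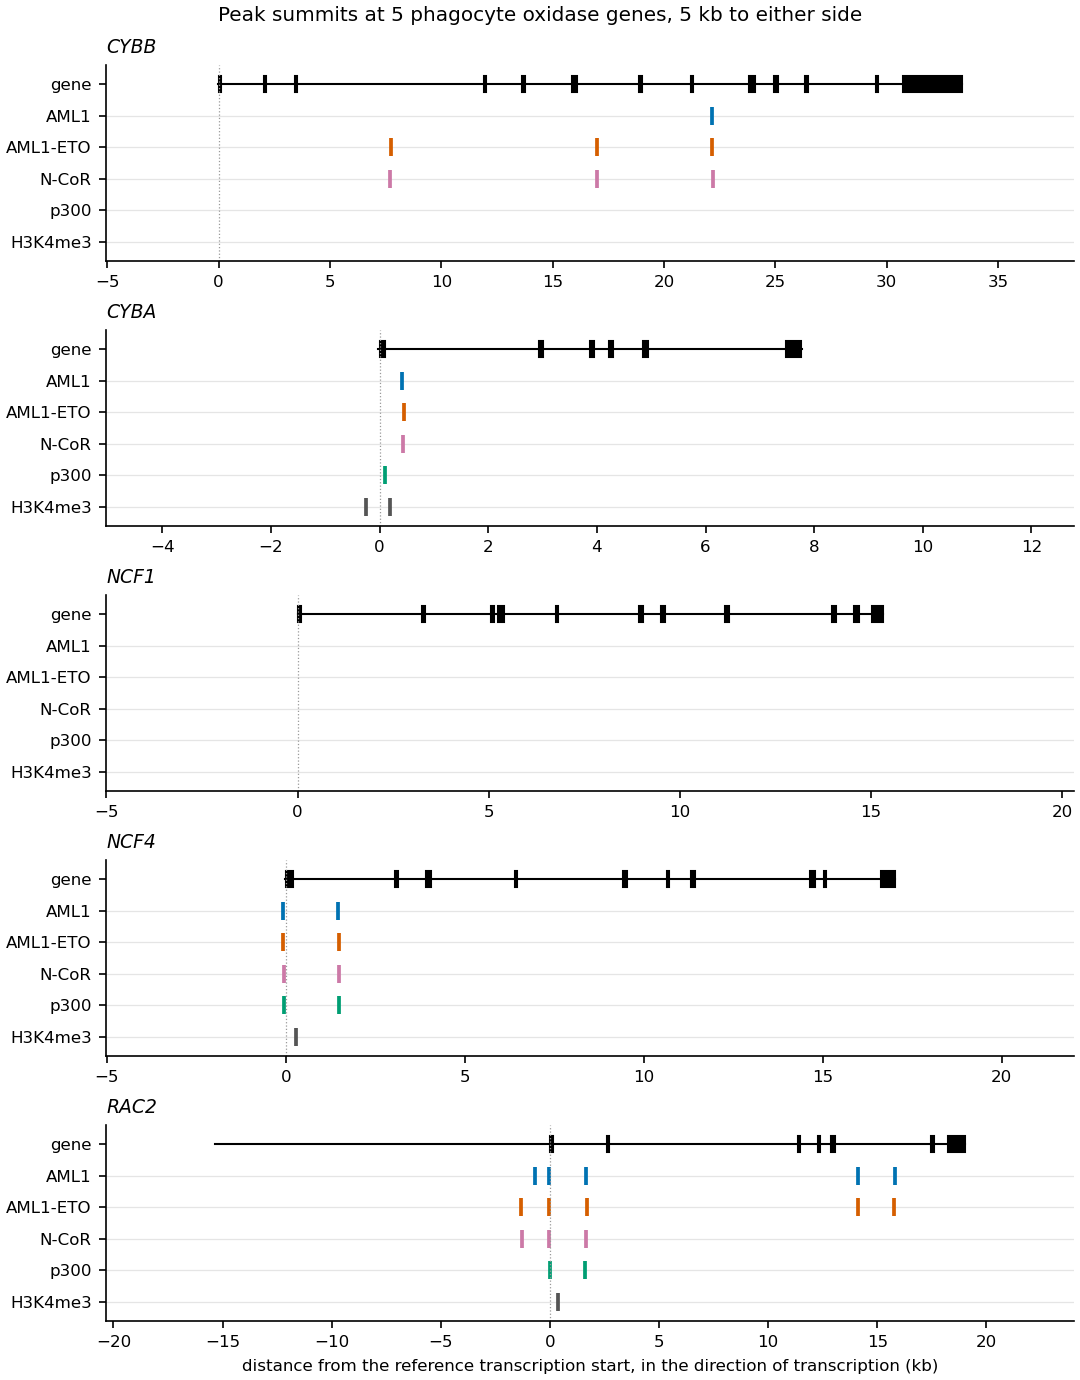
Peak summits of the 5 lists (rows, coloured ticks) at each oxidase gene, by distance in kb from the reference transcription start in the direction of transcription (dotted line at 0), with exons of the reference transcript as black boxes and the gene body as a line. CYBB holds its summits in introns, CYBA, NCF4 and RAC2 hold summits of all 5 lists around the start, and the panel for NCF1 is empty.

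The genes differed in what accompanied AML1-ETO. It stood with N-CoR but without p300 or H3K4me3 at CYBB, and with summits of every list near the starts of CYBA, NCF4 and RAC2. RAC2 held further sites without a co-regulator, and NCF1 had no site. All 5 lists together met at 3 oxidase genes, and at 14.5% of all genes.

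CYBB (ENSG00000165168.9; chromosome X, 37639271 to 37672714, plus strand) encodes the catalytic, electron-carrying subunit. It held 3 AML1-ETO, 3 N-CoR and 1 AML1 summits, and 0 of p300 and H3K4me3. All 7 lay in introns. At least 3 AML1-ETO summits were found at 9.04% of all genes and at least 3 N-CoR summits at 3.88%. AML1, AML1-ETO and N-CoR without p300 or H3K4me3 was the pattern of 221 genes (1.10%), and no other protein-coding gene had the same 5 counts as CYBB. The first AML1-ETO summit lay in intron 3, 7737 bp downstream of the reference start, with the N-CoR summit 54 bp away. The second lay in intron 6, at 16976 bp, with N-CoR 28 bp away. The third, in intron 8 at 22150 bp, was the one that AML1 shared: its summit was 6 bp from that of AML1-ETO, and that of N-CoR 38 bp. The windows of the 3 sites are shown because they carry the N-CoR-associated binding inside the gene. They are read on the plus strand of GRCh37 at chrX:37646999-37647098, chrX:37656238-37656337 and chrX:37661412-37661511, with capitals for the Runx consensus TGTGGT and the PU.1 consensus GAGGAA on either strand (ACCACA and TTCCTC when the match is on the minus strand).
CYBB intron 3: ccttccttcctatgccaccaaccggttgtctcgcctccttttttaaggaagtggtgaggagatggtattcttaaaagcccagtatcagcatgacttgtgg
CYBB intron 6: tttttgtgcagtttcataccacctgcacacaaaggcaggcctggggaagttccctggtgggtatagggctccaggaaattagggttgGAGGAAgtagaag
CYBB intron 8: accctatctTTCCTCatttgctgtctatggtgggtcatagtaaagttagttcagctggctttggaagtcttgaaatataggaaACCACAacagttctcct
The site shared by AML1 held both a Runx and a PU.1 match, the intron 6 site a PU.1 match, and the intron 3 site neither.

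The start of CYBB itself had no site. The nearest p300 summit was 24764 bp outside the gene body and the nearest H3K4me3 summit 33875 bp outside it, in an exon of DYNLT3, the next gene downstream. The study used a region of this start, which it calls Phox, as its negative control for ChIP-PCR. The primers CCAATGATTATTAGCCAATTTCTG and CATGGTGGCAGAGGTTGAATGT each matched chromosome X once and bound a product of 138 bp from 37639196 to 37639333. From the centre of the product the nearest summits were 7731 bp (N-CoR), 7785 bp (AML1-ETO), 14360 bp (AML1), 24757 bp (p300) and 67325 bp (H3K4me3) away. The negative control therefore had no peak in any of the 5 lists, and the gene it belongs to had 7 further in. The part of the product upstream of the first annotated CYBB start, chrX:37639196-37639270, is shown for its PU.1 consensus, in capitals.
Phox region, upstream part: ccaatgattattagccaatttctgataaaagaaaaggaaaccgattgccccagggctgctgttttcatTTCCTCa
The match begins 48 bp upstream of the reference start.

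More AML1-ETO sites lay upstream of CYBB. Within 50 kb of the gene the counts rose to 8 AML1-ETO, 6 N-CoR, 4 AML1, 1 p300 and 1 H3K4me3 summits, and the 5 added AML1-ETO sites fell between XK and CYBB, in sequence that lies in no named protein-coding gene (an unnamed read-through record, ENSG00000250349, spans the whole interval). The site 24794 bp upstream of the start was the one with p300: the summits of AML1, p300 and N-CoR were 10, 11 and 27 bp from that of AML1-ETO. Sites at 33534 and 14383 bp upstream were shared with AML1 and N-CoR. Those at 26495 and 12431 bp upstream overlapped none of the other 3 proteins. The window of the site with all 4 proteins, chrX:37614468-37614567, holds a Runx and a PU.1 match close together, in capitals.
CYBB upstream 24794 bp: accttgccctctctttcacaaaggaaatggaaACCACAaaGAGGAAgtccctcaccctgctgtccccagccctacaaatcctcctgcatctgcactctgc
Of the 8 AML1-ETO sites, 4 overlapped AML1, 6 overlapped N-CoR and 1 overlapped p300.

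CYBA (ENSG00000051523.12; chromosome 16, 88709683 to 88717491, minus strand) encodes the partner that stabilizes the catalytic subunit in the membrane. In contrast to CYBB, its sites stood at the start. The AML1-ETO summit lay in intron 1, 448 bp downstream of the reference start, with N-CoR 16 bp and AML1 37 bp away. The p300 summit was closer to the start, at 107 bp, and 341 bp from that of AML1-ETO, so that the windows did not overlap. H3K4me3 summits lay on both sides of the start, 186 bp downstream and 257 bp upstream. The same 5 counts, 1 each for the 4 proteins and 2 for H3K4me3, were found at 139 other genes (0.689%), of which TENT5B (7831 bp) and RPL15 (7784 bp) are nearest to CYBA in length. The AML1-ETO window, chr16:88716963-88717062, is shown because it is the 1 AML1-ETO site of this gene. It held neither consensus, while the AML1 window, whose summit is 37 bp away, held a PU.1 match.
CYBA intron 1: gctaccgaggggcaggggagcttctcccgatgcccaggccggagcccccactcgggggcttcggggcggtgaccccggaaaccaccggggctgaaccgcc
Within 50 kb the gene had 4 AML1-ETO, 3 AML1, 3 N-CoR, 2 p300 and 4 H3K4me3 summits. A site with AML1 and N-CoR lay in an intron of ZC3H18, and a further AML1-ETO summit in the same gene overlapped no other protein. Another site with AML1 and N-CoR lay 40965 bp upstream of the CYBA start, between SNAI3 and RNF166. The remaining p300 summit was in an exon of MVD, beside an H3K4me3 summit.

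NCF1 (ENSG00000158517.16; chromosome 7, 74188358 to 74203659, plus strand) encodes the organizer subunit. It had 0 summits in all 5 lists, both with 5 kb and with 50 kb to either side. No summit of any list within 5 kb was the state of 25.8% of all genes, and within 50 kb of 12.9%. The nearest summits to the gene body were 102061 bp (H3K4me3), 112901 bp (p300), 114013 bp (AML1), 114049 bp (AML1-ETO) and 116646 bp (N-CoR) away. TGM1 (15319 bp) and NCR2 (15282 bp) are the genes nearest in length among the 5201 other genes with no summit.

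The count at NCF1 differs from the others in what it rests on, since the gene has 2 near-identical pseudogenes on the same chromosome, NCF1B (72634681 to 72649821, plus strand) and NCF1C (74572445 to 74587848, minus strand). A read that matches several copies equally well does not show which copy it came from. Of the positions in NCF1 and 5 kb to either side, 89.7% began a 36-base subsequence that occurs again, exactly and on either strand, elsewhere in the genome. The share was 1.46% at CYBB, 2.79% at NCF4, 5.75% at CYBA and 8.25% at RAC2, and 95% at both pseudogenes. With longer subsequences it stayed high at NCF1, at 83.8% for 50 bases and 74.9% for 75 bases. Read length, and how reads with several equal matches were treated, are not given in the sources used here. Their part in the empty count at NCF1 was not tested.

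**Figure D2:**
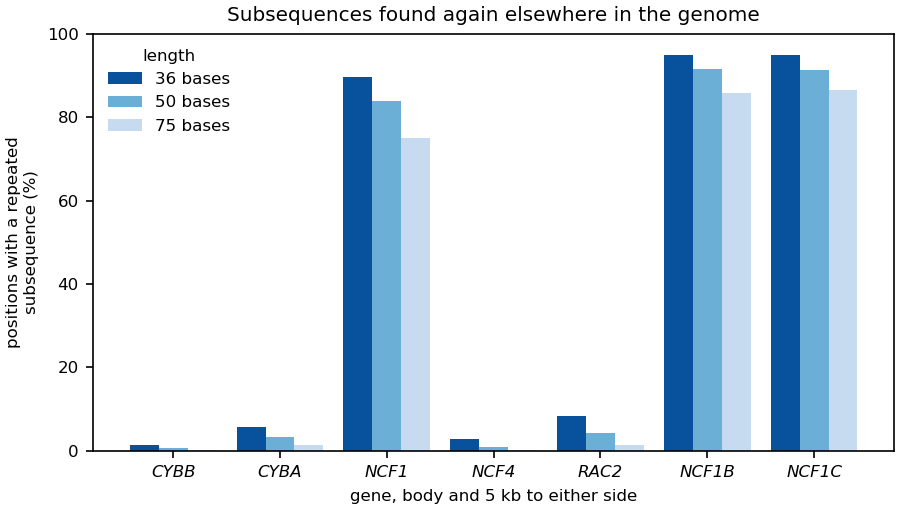
Share of positions (%, y axis) in each gene and 5 kb to either side (x axis) whose subsequence of 36, 50 or 75 bases is found again elsewhere in GRCh37. NCF1 and its pseudogenes NCF1B and NCF1C stand between 74.9% and 95%, and the other 4 oxidase genes at or below 8.25%.

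One AML1-ETO summit lay in this gene family, in intron 10 of the NCF1B pseudogene at chr7:72649611-72649710, and the other 4 lists had no summit within 5 kb of the pseudogene. NCF1C had 0 summits. The NCF1B window is shown beside the matching sequence of NCF1 (chr7:74203291-74203390, plus strand) and NCF1C (chr7:74572714-74572813, minus strand), with the bases that differ from NCF1B in capitals.
NCF1B: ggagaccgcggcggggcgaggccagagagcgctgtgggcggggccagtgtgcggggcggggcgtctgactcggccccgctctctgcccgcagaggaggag
NCF1: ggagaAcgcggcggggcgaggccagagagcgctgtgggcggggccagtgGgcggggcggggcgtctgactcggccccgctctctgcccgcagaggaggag
NCF1C: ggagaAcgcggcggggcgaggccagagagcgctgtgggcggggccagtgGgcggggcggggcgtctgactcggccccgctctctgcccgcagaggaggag
The window differs from each of the other copies at 2 bases. In NCF1B, 58 of the 100 subsequences of 36 bases that start in the window were repeated elsewhere, and in NCF1 and NCF1C 100 of 100. Up to 2 mismatches were allowed in the alignment, and how many of the reads behind the site came from the other copies was not tested.

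NCF4 (ENSG00000100365.16; chromosome 22, 37257030 to 37274059, plus strand) encodes the adaptor that binds phosphatidylinositol 3-phosphate on the phagosome. It held 2 summits of each of the 4 proteins and 1 of H3K4me3, and every one of the 8 protein summits fell into 1 of 2 regions where all 4 proteins met. At the start, the AML1-ETO summit lay 79 bp upstream, and those of AML1, N-CoR and p300 were 7, 21 and 29 bp from it. In intron 1, 1475 bp downstream and 43 bp from another annotated start, the distances were 3 bp for p300, 5 bp for N-CoR and 31 bp for AML1. The H3K4me3 summit lay between the regions, 276 bp downstream of the start. NCF4 was the one oxidase gene where each of its AML1-ETO sites within 5 kb overlapped p300 as well as N-CoR. The same 5 counts were found at 14 other genes (0.0694%), of which SDE2 (16642 bp) and CELA1 (18238 bp) are nearest in length. The window of the intron 1 site, chr22:37258473-37258572, is shown as a site where the co-repressor and the co-activator coincide.
NCF4 intron 1: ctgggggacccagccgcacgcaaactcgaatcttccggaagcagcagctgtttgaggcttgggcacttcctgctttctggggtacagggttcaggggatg
It held neither the Runx nor the PU.1 consensus, and the AML1 window of the same region held a PU.1 match. The promoter, where the other region lies, held 2 PU.1 matches. Within 50 kb NCF4 gained only a p300 and an H3K4me3 summit, on either side of the start of CSF2RB, which encodes the shared beta chain of the receptors for interleukin-3, interleukin-5 and GM-CSF.

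RAC2 (ENSG00000128340.16; chromosome 22, minus strand) encodes the GTPase of the complex, which is expressed in blood cells. The annotated record runs from 37621310 to 37655634, with the reference start at 37640309 and a longer transcript that extends the record upstream, and the gene lies 347251 bp from NCF4. It had the most sites of the 5 genes, with 5 AML1-ETO, 5 AML1, 3 N-CoR, 2 p300 and 1 H3K4me3 summits. At least 5 AML1-ETO summits were found at 2.78% of all genes, and at least 5 AML1 summits at 0.729%. No other gene had the same 5 counts. At the start all 4 proteins met: the AML1 and AML1-ETO summits were on the same base, 32 bp upstream of the reference start, the p300 summit was on the reference start itself, and the N-CoR summit was 32 bp further upstream than that of AML1-ETO. H3K4me3 followed 375 bp downstream. In intron 1, 1684 bp downstream, all 4 proteins met again, with AML1 13 bp, N-CoR 35 bp and p300 92 bp from the AML1-ETO summit.

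The other RAC2 sites differed in their co-regulators. In intron 5, AML1-ETO summits at 14104 and 15768 bp lay 24 and 32 bp from AML1 summits, with no N-CoR or p300 overlap, and the nearest N-CoR summits were 12455 and 14119 bp away. At 1312 bp upstream of the start AML1-ETO overlapped N-CoR (26 bp) but not AML1, and at 681 bp upstream an AML1 summit overlapped none of the other 3 proteins. The windows of a site of all 4 proteins, chr22:37638575-37638674, and of the site of AML1-ETO with N-CoR, chr22:37641571-37641670, are shown as sites with different co-regulators, on the plus strand with PU.1 matches in capitals.
RAC2 intron 1: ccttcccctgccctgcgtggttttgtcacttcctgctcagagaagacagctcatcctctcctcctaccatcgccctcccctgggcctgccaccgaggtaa
RAC2 upstream: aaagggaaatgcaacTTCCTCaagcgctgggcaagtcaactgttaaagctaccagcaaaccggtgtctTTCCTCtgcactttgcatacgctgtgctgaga
The upstream window held 2 PU.1 matches and the intron 1 window 0, and neither held the Runx consensus. The AML1-ETO window at the start, the other site of all 4 proteins, held 1 PU.1 match.

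RAC2 also had the densest surroundings. Within 50 kb there were 13 AML1-ETO, 10 AML1, 10 N-CoR, 8 p300 and 2 H3K4me3 summits, and 96 protein-coding genes (0.476%) had at least 13 AML1-ETO summits in a window drawn the same way. Upstream, 4 of the AML1-ETO sites lay in introns of CYTH4, a guanine nucleotide exchange factor for ARF GTPases, and those at 40895 and 63006 bp upstream of the RAC2 start were shared by all 4 proteins. The site at 56547 bp was shared with N-CoR and p300, and that at 59707 bp with AML1 and N-CoR. Between CYTH4 and RAC2, 30489 bp upstream, AML1-ETO met N-CoR and p300 without AML1, and at 35402 bp it met AML1 without a co-regulator. Downstream, a site of all 4 proteins and a site of AML1-ETO with N-CoR lay beyond C1QTNF6. Which gene these sites act on cannot be read from the lists.

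**Figure D3:**
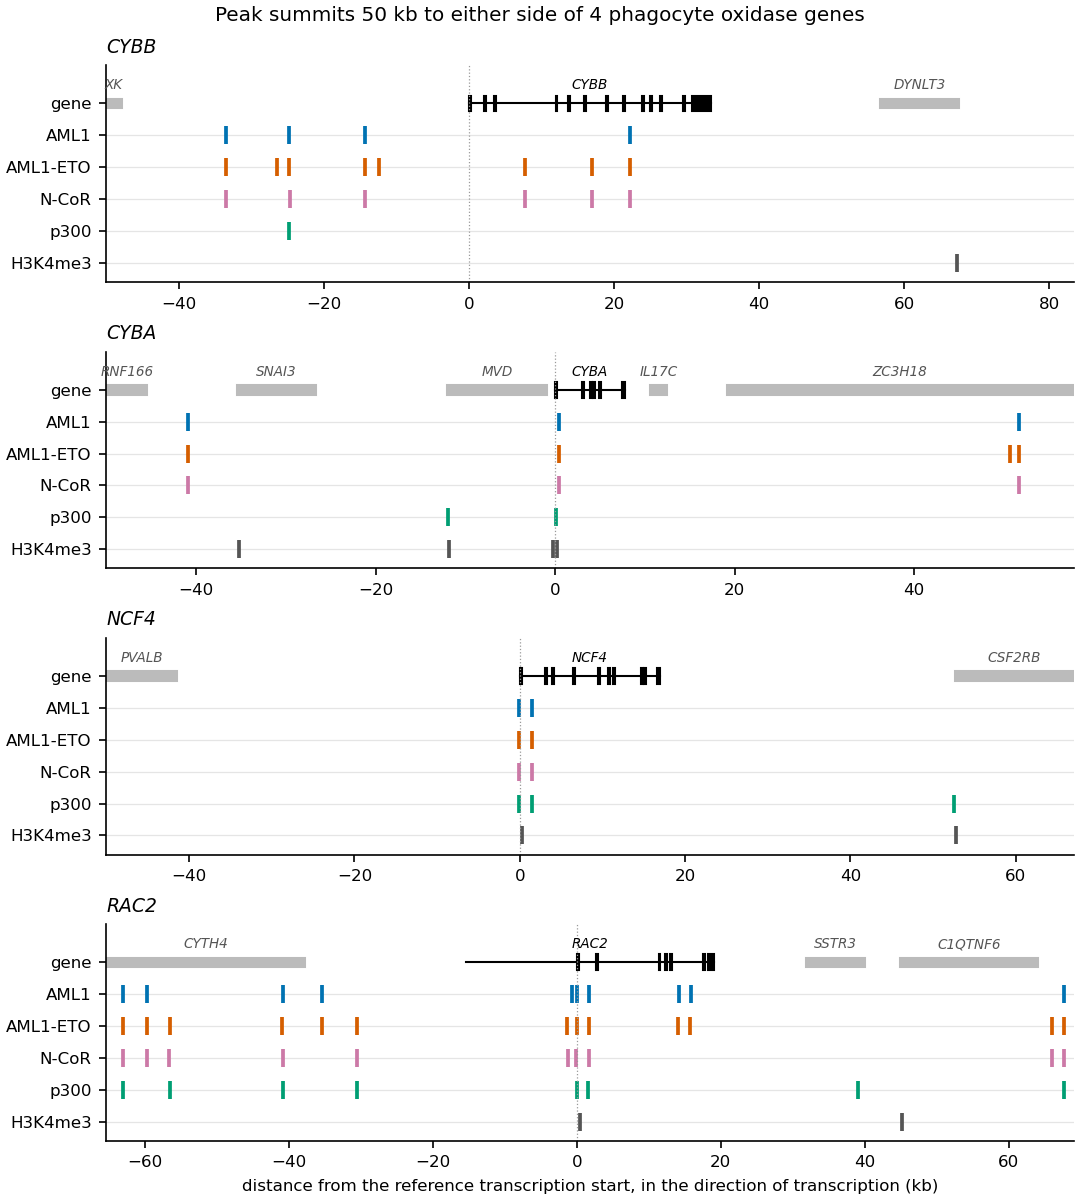
Peak summits of the 5 lists (rows, coloured ticks) within 50 kb of 4 oxidase genes, by distance in kb from the reference start in the direction of transcription, with named neighbouring protein-coding genes in grey. NCF1 is left out since it had no summit in this range. AML1-ETO summits number 8 around CYBB, 4 around CYBA, 2 around NCF4 and 13 around RAC2.

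The co-regulators of the AML1-ETO sites were then compared, with windows counted as overlapping when they shared at least 1 bp. Of the 11 AML1-ETO sites within 5 kb of the oxidase genes, 9 overlapped N-CoR (81.8%, exact Clopper-Pearson 95% interval 48.2% to 97.7%), 8 overlapped AML1 (72.7%, 39.0% to 94%) and 4 overlapped p300 (36.4%, 10.9% to 69.2%). Among all 13151 AML1-ETO peaks within 5 kb of a protein-coding gene the shares were 37.7% for N-CoR, 44.4% for AML1 and 23.5% for p300. The intervals cover counting error over sites only. N-CoR was sequenced to more reads than p300, and the part of depth in these shares was not tested. The sites come from 4 genes and sites of 1 gene are not independent, so the shares are set side by side as a description, with no test of their difference. Within 50 kb the shares were 77.8% (21 of 27, 57.7% to 91.4%), 66.7% (18 of 27, 46.0% to 83.5%) and 37.0% (10 of 27, 19.4% to 57.6%), and no share of all peaks was computed for this wider window. By gene, N-CoR overlapped 3 of 3 sites of CYBB, 1 of 1 of CYBA, 2 of 2 of NCF4 and 3 of 5 of RAC2, and p300 overlapped 0 of 3, 0 of 1, 2 of 2 and 2 of 5. Every p300 overlap was at a site that N-CoR overlapped as well, within 5 kb.

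**Figure D4:**
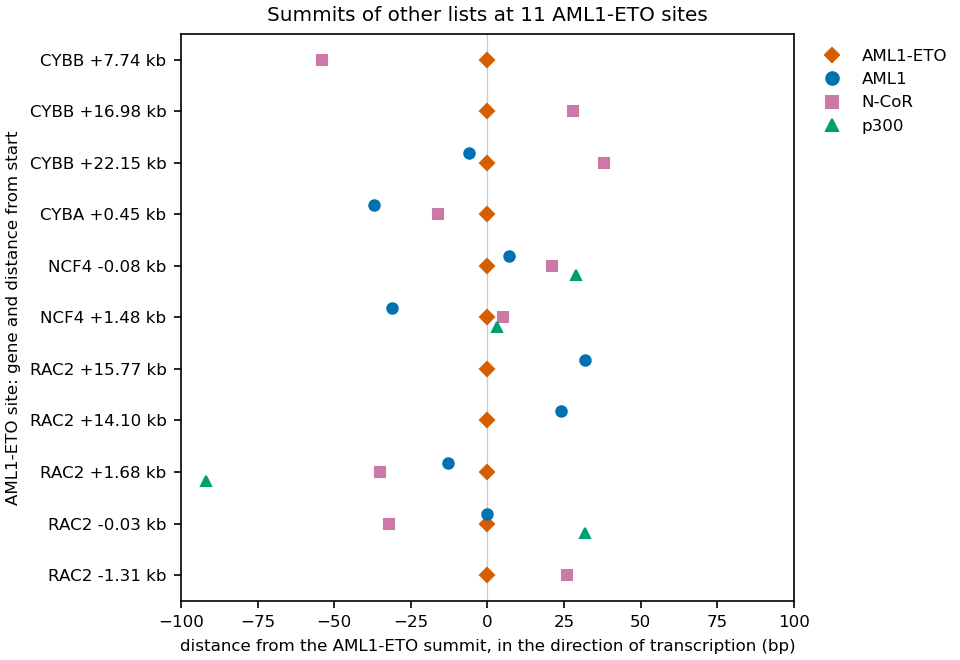
Distance in bp (x axis, in the direction of transcription) of AML1, N-CoR and p300 summits from the AML1-ETO summit of each of the 11 sites within 5 kb (y axis, named by gene and distance from the start). Summits of other lists sit within 100 bp of AML1-ETO at each site, p300 at NCF4 and at RAC2 alone, and the p300 summit of CYBA, 341 bp away, is outside the range drawn.

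When windows of the 4 proteins that overlap were merged, the 5 genes had 13 regions within 5 kb. All 4 proteins met in 4 of them, 2 at NCF4 and 2 at RAC2. AML1, AML1-ETO and N-CoR without p300 met in 2, at CYBB and CYBA. AML1-ETO met N-CoR alone in 3, of which 2 were at CYBB and 1 at RAC2, and AML1 alone in 2, both at RAC2. The last 2 regions held a single protein, p300 at CYBA and AML1 at RAC2. Within 50 kb there were 32 regions, of which 8 held all 4 proteins and 8 a single one.

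H3K4me3 was at the start of 3 of the 5 genes, near the background of 62.3% of all genes. A summit lay within 1000 bp of an annotated start at CYBA (121 bp), NCF4 (276 bp) and RAC2 (354 bp), and the nearest one was 49116 bp from a CYBB start and 107934 bp from an NCF1 start. The genes with H3K4me3 at the start were the genes with p300 within 5 kb. CYBB lies on chromosome X, which holds 3.42% of all H3K4me3 peaks, 2.06% of all AML1-ETO, 1.95% of all N-CoR, 1.72% of all AML1 and 1.29% of all p300 peaks. RNA was not measured, so the lists do not say whether a gene was expressed.

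The sequence of the sites was compared with that of all sites. Here the shares of all peaks are over each whole list, with peaks far from genes included, unlike the overlap shares above. A share over peaks within 5 kb of a gene was not computed for the motifs. The Runx consensus TGTGGT, searched on both strands of the 100 bp window, was present at 1 of 11 AML1-ETO sites of the oxidase genes (9.09%, 0.230% to 41.3%), at 31.3% of all AML1-ETO peaks and in 6.57% of windows 1000 bp to either side. The count at the oxidase genes was 2 within 100 bp of the summit and 3 when TGCGGT was also counted. The PU.1 consensus GAGGAA was present at 6 of 11 (54.5%, 23.4% to 83.3%), at 26.0% of all peaks and in 8.82% of windows 1000 bp to either side. The ETS consensus AGGAAG, which overlaps GAGGAA by 5 bases, was present at 7 of 11 (63.6%, 30.8% to 89.1%), against 37.5% of all peaks. Beyond 5 kb and within 50 kb the Runx consensus was at 7 of 16 AML1-ETO sites (43.8%, 19.8% to 70.1%) and the PU.1 consensus at 5 of 16 (31.2%, 11% to 58.7%). The ETS consensus was there at 5 of 16 AML1-ETO sites as well (31.2%, 11% to 58.7%), against 37.5% of all peaks. In that outer range the Runx and PU.1 consensus were at 3 and 4 of 10 AML1 sites and at 4 and 5 of 12 N-CoR sites. The ETS consensus was at 5 of these 10 AML1 sites and at 6 of these 12 N-CoR sites. AML1 sites within 5 kb held the Runx consensus at 2 of 9 (22.2%, 2.81% to 60.0%), against 40.6% of all AML1 peaks, and the PU.1 consensus at 6 of 9 (66.7%, 29.9% to 92.5%), against 25.6%. The ETS consensus was at 6 of 9 AML1 sites (66.7%, 29.9% to 92.5%), against 37.7%. N-CoR sites within 5 kb held the PU.1 consensus at 3 of 9 (33.3%, 7.49% to 70.1%), against 30.8% of all N-CoR peaks, and the Runx consensus at 1 of 9 (11.1%, 0.281% to 48.2%), against 19.5%. They held the ETS consensus at 5 of 9 (55.6%, 21.2% to 86.3%), against 46.2% of all N-CoR peaks. When the PU.1 consensus was lengthened to GAGGAAGT, it was at 2 of 9 AML1 sites (22.2%, 2.81% to 60.0%) and 6.11% of all AML1 peaks, and at 3 of 11 AML1-ETO sites (27.3%, 6.02% to 61.0%) and 6.75% of all AML1-ETO peaks. These shares too are a description without a test. A match describes these letters in the window and does not show that a factor binds there.

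In the promoters, from 250 bp upstream of the reference start to 50 bp into the transcript, the PU.1 consensus was found at CYBB (48 bp upstream), NCF1 (45 bp), NCF4 (90 and 55 bp) and RAC2 (3 bp), and not at CYBA. The share among all protein-coding genes was 27.2%. The Runx consensus was found at 0 of the 5 promoters and at 10.8% of all. The G and C content of the promoters was 37.7% at CYBB, 57.3% at NCF1, 58.7% at NCF4, 66.7% at RAC2 and 72.7% at CYBA, where the median of all promoters was 63.7% (quartiles 54.7% and 71.0%).

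Genes that act on the oxidase were counted in the same windows. RAC1 and RAP1A are small GTPases linked to the complex, CYBC1 is a chaperone of the flavocytochrome, PRKCB and PRKCD are protein kinases C that phosphorylate cytosolic subunits, VAV1 is an exchange factor for Rac, ARHGDIB holds Rac in its inactive form, and HVCN1 is the proton channel that balances the charge moved by the oxidase. Of these 8 genes, 7 had AML1-ETO sites (41.3% of all genes), with 32 summits in all. AML1 had sites at 5 (34.9%), N-CoR at 5 (26.7%) and p300 at 5 (45.5%), and H3K4me3 lay at the start of 8 (62.3%). Some of these genes are long, with 384629 bp for PRKCB and 174474 bp for RAP1A, so their counts are not set against those of the shorter oxidase genes. PRKCB held 10 AML1-ETO summits, or 0.253 per 10 kb of window, with 3 of N-CoR and 0 of p300. Within 50 kb the 8 genes had AML1-ETO, AML1, N-CoR and H3K4me3 sites at 8 each and p300 sites at 7, where the shares of all genes were 66.5%, 59.8%, 48.7%, 80.9% and 64.4%. VAV1 held 7 AML1-ETO, 6 N-CoR and 5 p300 summits, HVCN1 6, 2 and 1, and PRKCD 4, 2 and 0. ARHGDIB had 0 AML1-ETO summits, with 1 of N-CoR and 2 of p300. RAC1, the relative of RAC2 that is expressed in most tissues, had 1 AML1-ETO summit, no AML1, N-CoR or p300 summit, and 2 H3K4me3 summits.

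Oxidases of other tissues and their organizers were counted as well. Among 10 such genes (NOX1, NOX3, NOX4, NOX5, DUOX1, DUOX2, DUOXA1, DUOXA2, NOXO1 and NOXA1), AML1 and N-CoR had a site at 0, p300 at 1 (NOXA1), AML1-ETO at 2 (DUOX1 and NOXA1, with 1 summit each) and H3K4me3 at 3 (DUOX1, NOXO1 and NOXA1). H3K4me3 lay at the start of 2 of them, NOXO1 and NOXA1. Within 50 kb AML1-ETO had a site at 6 of the 10 genes, H3K4me3 at 6, p300 at 3, N-CoR at 2 and AML1 at 1. These counts stand beside the 34.9%, 26.7%, 45.5%, 41.3% and 68.0% of all genes given above for AML1, N-CoR, p300, AML1-ETO and H3K4me3 with 5 kb. With 50 kb the shares of all genes were 66.5% for AML1-ETO, 80.9% for H3K4me3, 64.4% for p300, 48.7% for N-CoR and 59.8% for AML1. DUOX1, DUOXA1 and DUOXA2 lie side by side on chromosome 15 and are not independent in these counts. Their AML1-ETO site within 50 kb is the same summit, 1916, 37554 and 49071 bp from the gene bodies.

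**Figure D5:**
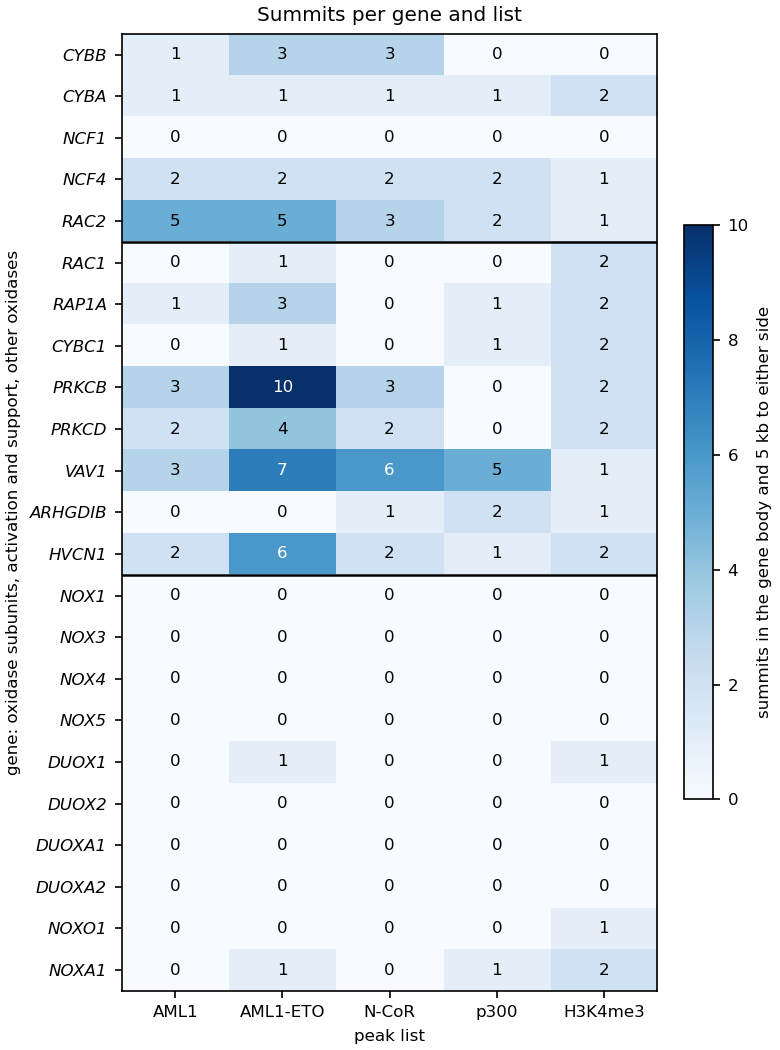
Number of summits in the gene body and 5 kb to either side (printed and shaded from 0 to 10) for each gene (rows) in each list (columns), with black lines between the 5 oxidase genes, the 8 genes of activation and support and the 10 genes of other oxidases. Counts are not corrected for gene length. RAC2 has the most AML1 summits shown (5) and PRKCB the most AML1-ETO summits (10), and most cells of the lowest block are 0. The PRKCB window is 394629 bp long, and its AML1-ETO density is 0.253 per 10 kb. This density runs from 0 (ARHGDIB) to 0.856 (PRKCD) among the 8 genes of activation and support. Among the 5 oxidase genes it runs from 0 (NCF1) to 1.13 (RAC2), with 0.562 at CYBA and 0.691 at CYBB.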

How the data were processed

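ChIP DNA of Kasumi-1 cells was sequenced by the authors for H3K4me3, p300, N-CoR, AML1-ETO and AML1, and bases were called with CASAVA 1.6 per the labels. The authors aligned reads to GRCh37 with bowtie 0.12.8 (up to 2 mismatches) and called peaks on the 2 pooled replicates per antibody with MACS 2.0.10.20131216 at p < 1e-20. The deposited lists give positions of 100 bp windows and no signal, score or p-value. Peak names in 3 of the lists carry the prefix of another list, and each list was taken by its sample. Libraries of H3K27me3 and input were not analysed here, and some cell type markers and site sequences are not reported here.

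Summits, counted from 1, were assigned to genes of GENCODE release 44 on GRCh37, with MANE Select transcripts giving the reference start. Intervals are exact Clopper-Pearson 95% and cover counting error alone. With 1 pooled list per antibody no test was made. The genes named are the 5 members, the NCF1 pseudogenes, the lists of activation genes and other oxidases, genes beside named sites and, for each member, the 2 genes nearest in length with the same counts. Members and lists were chosen with earlier results of these data known. Alternatives were other flanks, overlap windows, motifs, distances to the start and the first 5000 peaks of each list, with subsequences of 50 and 75 bases added after the data had been seen. Counting was tested on simulated data. Python 3.11.15, numpy 2.4.6, numba 0.67.0, matplotlib 3.10.9, pysam 0.24.0, SciPy 1.17.1 and samtools 1.23.1 were used.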

Additional observations from a re-analysis of the deposited data

How the results depend on the processing

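Of 90 recomputed main values, 64 equalled the main value or stayed within 1.5 times of it, as did 118 of 158 values of single genes. Values that were 0 and stayed 0 are among these, as at NCF1 in every list and setting. Leaving out NCF1, which had 0 summits, could not change a total. These counts therefore overstate how stable the values are. With 50 kb to either side the oxidase genes had 27 AML1-ETO, 19 AML1, 21 N-CoR, 14 p300 and 9 H3K4me3 sites, AML1-ETO sites overlapped AML1 at 18, N-CoR at 21 and p300 at 10, and 59.8%, 66.5% and 48.7% of all genes had AML1, AML1-ETO and N-CoR. With the first 5000 peaks in the deposited order, whose meaning is not given in the sources used here, 5 AML1, 6 AML1-ETO, 4 N-CoR and 2 H3K4me3 sites were left, and the share of all genes was 15.1% for AML1-ETO, 17.5% for AML1, 25.7% for p300, 13.8% for N-CoR and 32.1% for H3K4me3. CYBB then had 1 AML1-ETO, 0 N-CoR and 0 AML1 sites, CYBA 0 AML1-ETO and 0 N-CoR sites, and NCF4 0 H3K4me3 sites. In gene bodies alone 23% of all genes had AML1 and 29.8% p300. The Runx consensus was at 2 of the AML1-ETO sites within 100 bp of the summit and at 3 with TGCGGT also counted, and PU.1 counted as GAGGAAGT was at 3 AML1-ETO and 2 AML1 sites. Without a score, a stricter peak threshold was not run. No paired analysis was possible because the replicates were pooled into 1 list per antibody and no test was made. The order of the lists by share of all genes changed. AML1-ETO was above AML1 in the main count and below it with the first 5000 peaks. That cut keeps a smaller part of the AML1-ETO list (18087 peaks) than of the AML1 list (11692), so the lists are not reduced alike. The p300 share was above that of AML1-ETO with 5 kb and below it with 50 kb (64.4% against 66.5%). Depth at a peak is not in the lists, and the reads per library that the study reports do not give the weakest binding a list could hold.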
